A study of Mus musculus with 6 samples.

Results

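Interferons are secreted proteins that warn cells of infection. They bind receptors at the cell surface, whose kinases activate STAT factors, and a complex that holds Stat2 and Irf9 then binds a DNA element in the promoters of interferon-stimulated genes. Many of these genes also have a low basal level in bone marrow stromal cells and macrophages without infection. Their products sense viral RNA, stop translation, cut RNA, trap virus particles or tune the pathway itself.

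The set described here holds 39 interferon-stimulated genes outside the major histocompatibility complex, taken by symbol from a deposited table of 23622 genes, and all 39 were found there. They fall into 6 role groups, none lies on X or Y (0 of 39), and they spread over 14 chromosomes. Messenger RNA came from 6 untreated primary cultures of C57BL/6 mouse marrow, grown to generation 3 from animals aged 2 weeks and labelled as bone progenitors. In 3 cultures the genotype was wild type (ctrl), and in the other 3 it was Ift140-/-(cko), a loss of a ciliary transport gene. They are called control 2, 3 and 4 and cKO 2, 3 and 4 here after their titles. No Cre driver and no number of mice is given in the sources used here, so p-values measure the spread between these cultures. The comparison asks whether basal interferon-stimulated transcripts differ with the deletion.

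Values are FPKM, a read number scaled by gene length and library size. The library totals inferred from these values were 17180101 to 28283414 reads. Ift140 was at 2.97 ± 0.194 FPKM in controls against 1.79 ± 0.0951 FPKM in cKO (SD, n = 3 each; log2 fold change -0.51, SE 0.07, limma adjusted p = 0.0138), and its adjusted p was 0.0721 without control 4 and 0.0599 without cKO 3. It was thus reduced but present in the cKO cultures, and a value over the whole gene does not show which exons were lost. Xist was at 0.0732 ± 0.0401 and 38.2 ± 1.85 FPKM. Of the 4 Y-linked markers, Eif2s3y, Kdm5d and Uty had 0 reads in every cKO library, and Ddx3y had 0, 1 and 0 reads. In the controls these markers had 361 to 1878 reads. All 3 controls thus had a male pattern and all 3 cKO cultures a female pattern, and genotype and sex cannot be told apart. Of 9 bone progenitor markers 8 were tested, and Col1a1 was high in both groups, at 3029 ± 140 and 2623 ± 600 FPKM. Lepr was too low to be tested, at 0.153 ± 0.0459 and 0.530 ± 0.111 FPKM, with all cKO values above all controls. Col1a2 was at 1058 ± 51.5 and 785 ± 125 FPKM, with all cKO values below all controls, and was not called (limma adjusted p = 0.0731). Of the 8, Prrx1 alone was called, and it was lower in cKO (limma adjusted p = 0.0313). That call was lost without each library in turn other than control 3 (adjusted p = 0.0639 to 0.126). All 17 macrophage markers were also expressed, with a summed level of 2654 to 3521 FPKM in controls against 3354 to 4525 FPKM in cKO. These sums overlapped, and they rest largely on Lyz2, the highest marker, at 1276 to 1371 FPKM in controls and 1323 to 1937 FPKM in cKO. Of the 17 log2 fold changes 14 were positive and 3 negative (Cx3cr1, Itgam and Fcgr1), so the sums do not show a rise of every marker. Among the cKO cultures, cKO 2 stood apart in the genes described here, so for many of them a value without it follows the main one.

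No member was called in either direction. Of 32 members with a mean of at least 0.5 FPKM, 0 rose and 0 fell (limma on log2(FPKM + 1), Benjamini-Hochberg adjusted p under 0.05). Of all 13326 tested genes 7.61% were called, 5.04% higher and 2.57% lower. At an unadjusted p under 0.05 there were 3 members, Samhd1, Oas2 and Trim25, where the same limit takes 28.8% of all tested genes. Voom on reads recovered from the FPKM also called 0 members, with 3 at an unadjusted p under 0.05. That unadjusted count ranged from 0 to 8 when a library was left out. It was 8 without control 2, 0 without control 3 and 2 without control 4. It was 1 without cKO 2 (Eif2ak2, lower in cKO), 1 without cKO 3 and 4 without cKO 4. Over all 17 alternative fits the lowest adjusted p of any member was 0.064. The groups did not overlap in 4 of 32 members, namely Dhx58, Oas2, Trim25 and Samhd1, all higher in cKO. That is 12.5%, against 35.7% of all tested genes. The median SE was 0.128 over the members and 0.0872 over all tested genes. A given difference is thus less easily seen in the members, and these shares do not show that they changed less. The median log2 fold change was 0.11 over the 32 members and -0.0011 over all tested genes, and 25 of the 32 members had a positive value. Of all tested genes 49.7% had a positive value. Without cKO 2 the median of the members was 0.02 and 17 of 32 were positive. Leaving out any other library gave medians of 0.06 (without control 3) to 0.19 (without cKO 4). In those fits 23 (without control 4) to 28 (without cKO 3) of 32 members were positive. On the scale of FPKM + 1, which understates the fold of low genes, the 95% confidence interval lay within 1.5-fold in both directions for 24 of the 32 members, and 1 interval, that of Isg15, reached beyond 2-fold. It does not bound the fold of FPKM itself, least of all for members of low level.

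**Figure D1:**
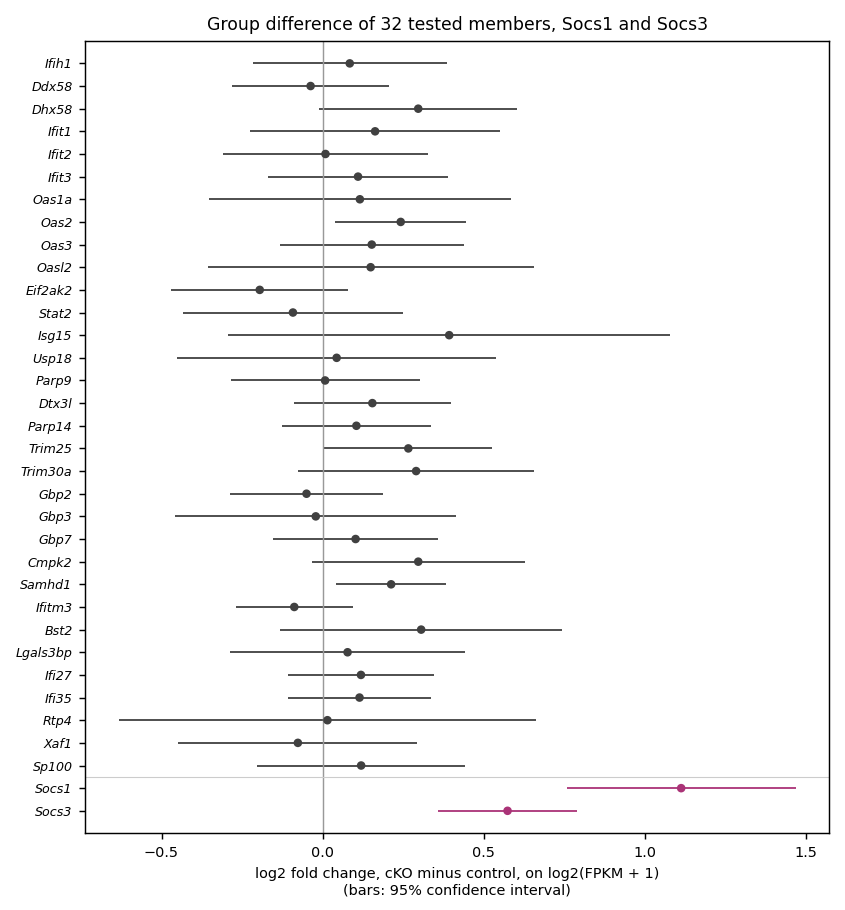
Log2 fold change of cKO against control on the log2(FPKM + 1) scale (x axis) for the 32 tested members and for Socs1 and Socs3 (y axis), with points for the estimate and bars for its 95% confidence interval, 3 libraries a group. The 32 members lie between -0.20 and 0.39 and none passed the threshold (grey), while Socs1 at 1.11 and Socs3 at 0.57 did (purple).

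The members covered a wide range of basal levels, which FPKM allows to be compared because it is scaled by gene length. Their mean over the 6 libraries ran from 0.146 FPKM in the lowest member to 226 FPKM in Ifitm3, with a median of 2.15 FPKM. Only 5 members had a mean of at least 20 FPKM, and these were Ifitm3, Lgals3bp, Bst2, Ifi27 and Samhd1. By contrast 16 of the 32 tested members had a mean under 3 FPKM. The remaining 7 members were under the filter and are described at the end of the account of the role groups.

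**Figure D2:**
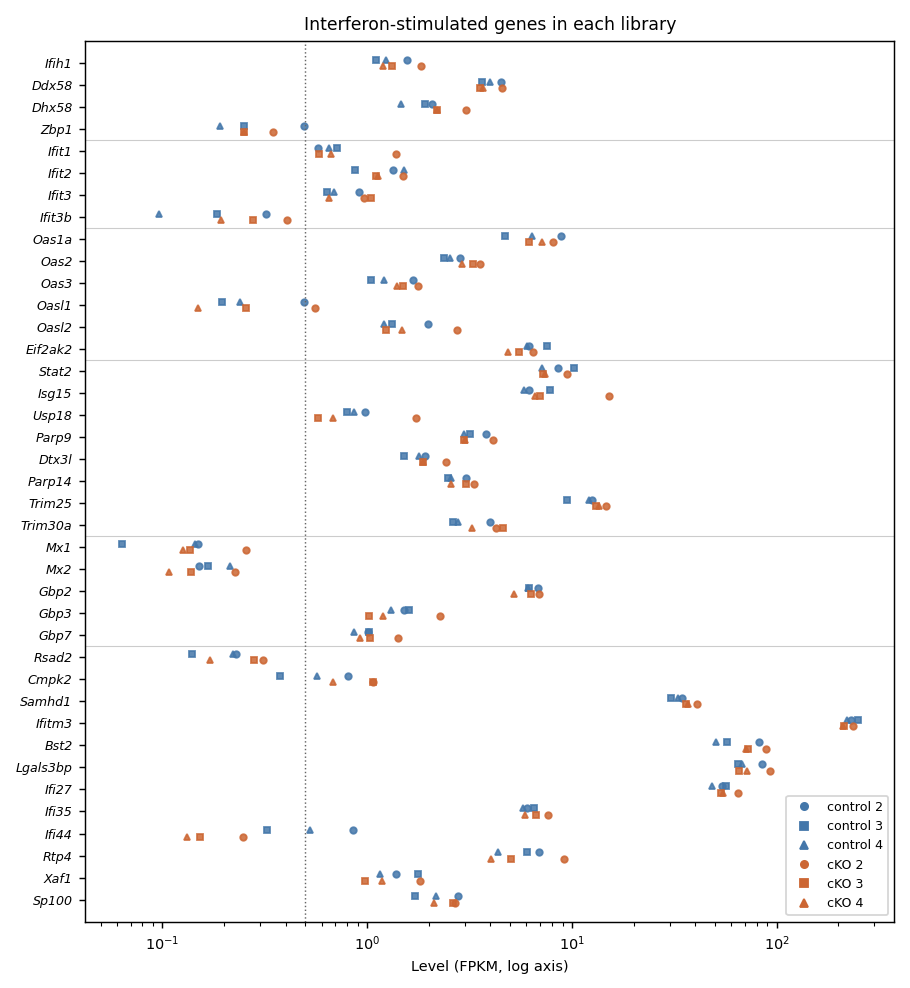
Level in FPKM (log x axis) of all 39 members (y axis, role groups divided by grey lines) in each library, blue for control and orange for cKO, with circles, squares and triangles for replicates 2, 3 and 4. The dotted line is the filter at 0.5 FPKM. Controls and cKO overlap in most rows, and cKO 2 is the highest point in many of them.

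Promoters were searched for the DNA element bound by the complex that holds Stat2 and Irf9. Its core, the interferon-stimulated response element, was searched on both strands as a run of GAAA on each side of a pair of free bases, from 250 bases before to 50 after the start of transcription. A match was found in 17 of the 29 members with a promoter in RefSeq (58.6%), against 3.99% of 27025 genes with such a promoter. The gamma-activated site TTCNNNGAA, which reads the same on both strands and binds STAT dimers, was found in 8 of the 29 members (27.6%) and in 9.55% of all genes. Matches may overlap each other, and a match is a description of the letters only. The lack of an exact match does not show that the element is absent. The members were listed as interferon-stimulated genes, so their higher share is not an independent result. Printed here are the promoters of the 4 members with a match and the highest mean FPKM, and that of Ifit1, added because it was raised in cKO 2 (chosen after its values were seen). Sequences are RefSeq's on GRCm38.p6, 5′ to 3′ on the strand of the gene, with the interferon-stimulated response element in capitals. Matches to the gamma-activated site, 1 each in Ifitm3 and Bst2, are not marked.
Ifitm3 (chr7:141010695-141010994, minus strand): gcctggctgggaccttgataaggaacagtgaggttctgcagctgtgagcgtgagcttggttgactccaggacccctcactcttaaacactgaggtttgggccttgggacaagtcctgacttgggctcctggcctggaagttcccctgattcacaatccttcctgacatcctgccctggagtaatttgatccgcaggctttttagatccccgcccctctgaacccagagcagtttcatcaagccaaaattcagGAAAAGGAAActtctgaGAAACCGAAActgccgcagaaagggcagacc
Bst2 (chr8:71537423-71537722, minus strand): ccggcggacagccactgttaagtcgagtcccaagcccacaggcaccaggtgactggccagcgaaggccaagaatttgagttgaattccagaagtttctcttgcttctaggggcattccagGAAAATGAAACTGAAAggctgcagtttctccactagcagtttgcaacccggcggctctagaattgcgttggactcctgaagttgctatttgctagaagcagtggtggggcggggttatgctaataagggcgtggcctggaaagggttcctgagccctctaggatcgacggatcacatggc
Stat2 (chr10:128270248-128270547, plus strand): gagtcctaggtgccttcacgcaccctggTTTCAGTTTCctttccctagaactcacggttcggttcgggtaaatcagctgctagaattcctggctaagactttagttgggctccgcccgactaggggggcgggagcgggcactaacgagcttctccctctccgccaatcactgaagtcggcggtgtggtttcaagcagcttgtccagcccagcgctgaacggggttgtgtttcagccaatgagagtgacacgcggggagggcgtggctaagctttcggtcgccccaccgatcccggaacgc
Isg15 (chr4:156200769-156201068, minus strand): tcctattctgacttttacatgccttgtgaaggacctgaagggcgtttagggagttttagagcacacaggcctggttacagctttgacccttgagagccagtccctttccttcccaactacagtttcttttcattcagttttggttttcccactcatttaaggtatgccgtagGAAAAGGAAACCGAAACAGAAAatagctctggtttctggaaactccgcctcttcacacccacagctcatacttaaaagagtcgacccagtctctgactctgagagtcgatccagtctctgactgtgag
Ifit1 (chr19:34640639-34640938, plus strand): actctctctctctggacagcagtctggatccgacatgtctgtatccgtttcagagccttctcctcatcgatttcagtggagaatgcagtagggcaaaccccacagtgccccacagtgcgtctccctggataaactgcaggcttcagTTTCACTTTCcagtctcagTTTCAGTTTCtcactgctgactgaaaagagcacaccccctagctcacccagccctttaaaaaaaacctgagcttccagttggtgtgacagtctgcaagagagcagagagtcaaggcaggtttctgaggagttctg
In Isg15 the element begins 78, 72 and 66 bases before the start, as overlapping copies in 1 run, and in Bst2 130 and 124 bases before it. Ifit1 holds separate copies 104 and 85 bases before the start, and Stat2 a single copy 222 bases before it. In Ifitm3 both copies lie in the first 50 transcribed bases.

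Among the cytosolic sensors Dhx58 and Ifih1 had the largest estimates of the group, and neither passed. Dhx58 (LGP2) is a helicase that tunes the other RNA sensors, and its level was 2.08, 1.93 and 1.46 FPKM in controls 2, 3 and 4 and 3.02, 2.20 and 2.18 FPKM in cKO 2, 3 and 4. All cKO cultures were above all controls, by little in cKO 3 and 4. The log2 fold change was 0.30 (SE 0.13, interval -0.01 to 0.60, limma adjusted p = 0.186), and 0.19 without cKO 2. Ifih1 (MDA5), which binds long double-stranded RNA, had 1.57, 1.11 and 1.23 FPKM in controls against 1.82, 1.33 and 1.19 FPKM in cKO. The groups overlapped (log2 fold change 0.08, SE 0.13, adjusted p = 0.701), and the sign turned without cKO 2 (-0.02). Ddx58 (RIG-I), which recognises viral RNA ends, was at 4.05 ± 0.437 and 3.93 ± 0.541 FPKM (SD, n = 3 each), with an interval of -0.28 to 0.21 for its log2 fold change.

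IFIT proteins bind foreign RNA and block its translation, and their 4 genes lie together on chromosome 19 within 99.3 kb (34550694 to 34650009, GRCm38). Ifit1 was at 0.579, 0.715 and 0.653 FPKM in controls against 1.38, 0.584 and 0.666 FPKM in cKO. Only cKO 2 was above the controls, and the other cKO cultures lay within or near their range. Its log2 fold change was 0.16 (SE 0.16, adjusted p = 0.553) and -0.02 without cKO 2. Ifit3 had 0.910, 0.637 and 0.690 FPKM in controls against 0.967, 1.05 and 0.648 FPKM in cKO (log2 fold change 0.11, SE 0.12, adjusted p = 0.577). Here cKO 2 and cKO 3 were high and cKO 4 was among the controls. In Ifit3, 51.2% of the 50-base windows of the longest transcript also occur in transcripts of Ifit3b, so the split of reads between them is uncertain. Ifit2 was at 1.24 ± 0.329 and 1.24 ± 0.220 FPKM.

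The OAS enzymes make short adenylate chains that switch on an RNA-cutting enzyme, and Eif2ak2 (PKR) halts translation when it binds double-stranded RNA. Oas2 had 2.84, 2.38 and 2.55 FPKM in controls against 3.57, 3.27 and 2.92 FPKM in cKO. Each cKO value was above each control value, although the gap between control 2 and cKO 4 was small. The log2 fold change was 0.24 (SE 0.09, interval 0.04 to 0.45, adjusted p = 0.124) and 0.19 without cKO 2. Eif2ak2 went the other way, at 6.14, 7.57 and 6.03 FPKM in controls against 6.47, 5.52 and 4.89 FPKM in cKO. Here cKO 2 lay above controls 2 and 4 and the other cKO cultures lay below all controls (log2 fold change -0.20, SE 0.12, adjusted p = 0.311). Without cKO 2 the estimate was -0.28 (limma unadjusted p = 0.0468, adjusted p = 0.214). Oas1a was at 6.65 ± 2.09 and 7.12 ± 0.958 FPKM, and it shares 57.6% of its windows with transcripts of Oas1g. Oas3 was at 1.31 ± 0.322 and 1.56 ± 0.198 FPKM and Oasl2 at 1.503 ± 0.414 and 1.82 ± 0.811 FPKM. Oas1a, Oas2 and Oas3 lie together on chromosome 5, from 120730333 to 120907521, and Oasl2 on the same chromosome near Oasl1.

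Genes that carry or tune the signal gave the largest estimate of all members, for Isg15. Isg15 is a small ubiquitin-like protein that is attached to other proteins, and its gene lies on chromosome 4 from 156199424 to 156200818 on the minus strand, with 2 exons. It was at 6.17, 7.78 and 5.86 FPKM in controls against 15.2, 6.96 and 6.59 FPKM in cKO, from 94, 127, 92, 197, 95 and 141 reads. The value in cKO 2 was 2.27 times the mean of the other 5 libraries, and those of cKO 3 and cKO 4 lay within the range of the controls. Its log2 fold change was 0.39 (SE 0.29, interval -0.29 to 1.08, adjusted p = 0.412) and 0.04 without cKO 2. Usp18, which takes Isg15 off its targets and dampens the receptor, was also highest in cKO 2, at 1.73 FPKM, while cKO 3 and cKO 4 (0.576 and 0.684 FPKM) lay below all controls (0.797 to 0.978 FPKM). Its log2 fold change was 0.04, and -0.20 without cKO 2.

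Trim30a, a mouse TRIM protein, was at 3.97, 2.63 and 2.78 FPKM in controls against 4.25, 4.60 and 3.24 FPKM in cKO. It was highest in cKO 3, and cKO 4 lay below control 2 (log2 fold change 0.29, SE 0.15, adjusted p = 0.265), and the estimate was 0.25 without cKO 2. Trim25, a ubiquitin ligase tied to RIG-I signalling, was named after its values were seen. It had 12.5, 9.42 and 12.2 FPKM in controls against 14.7, 13.1 and 13.6 FPKM in cKO. The groups did not overlap, and control 3 was the lowest library (log2 fold change 0.27, SE 0.11, interval 0.01 to 0.53, adjusted p = 0.167), and the estimate was 0.22 without cKO 2. Stat2 was at 8.65 ± 1.53 and 8.04 ± 1.29 FPKM. The ADP-ribosylation genes Parp9, Dtx3l and Parp14, which lie side by side on chromosome 16 from 35832874 to 35972605, were at 3.32 ± 0.438 and 3.36 ± 0.638, at 1.74 ± 0.207 and 2.06 ± 0.323, and at 2.70 ± 0.299 and 2.98 ± 0.377 FPKM. Their intervals all included 0.

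Of the dynamin-like GTPases, which assemble on viral particles or membranes, the 3 Gbp members were tested. Gbp7 was at 1.02, 1.02 and 0.866 FPKM in controls against 1.41, 1.04 and 0.919 FPKM in cKO, so that cKO 2 was highest and cKO 4 lay within the controls (log2 fold change 0.10, SE 0.11, adjusted p = 0.571). Gbp2 was at 6.82, 6.15 and 6.09 FPKM in controls against 6.87, 6.32 and 5.20 FPKM in cKO. These values overlapped (log2 fold change -0.05, SE 0.10, adjusted p = 0.775), and the estimate turned positive in 3 of 17 alternative fits. Gbp3 was at 2.28 FPKM in cKO 2 and between 1.02 and 1.60 FPKM in the other libraries, with a log2 fold change of -0.02, and -0.24 without cKO 2. All 3 genes lie on chromosome 3 between 142530342 and 142638008.

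The remaining effectors included the members with the highest basal level. Ifitm3, a membrane protein that blocks the fusion of viruses with cell membranes, was at 230.3, 248 and 220.5 FPKM in controls against 235, 213 and 209.5 FPKM in cKO. Its groups overlapped (log2 fold change -0.09, SE 0.08, interval -0.27 to 0.09, adjusted p = 0.489), and by level it stood at the 99.3rd percentile of the table. Bst2 (tetherin), which holds budding virus at the cell surface, was at 82.3, 57.3 and 50.7 FPKM in controls against 88.9, 72.2 and 71.0 FPKM in cKO. Control 2 and cKO 2 were the highest of their groups, and control 2 lay above cKO 3 and cKO 4 (log2 fold change 0.31, SE 0.18, adjusted p = 0.320). Without control 2 its adjusted p was 0.064, with a log2 fold change of 0.51, and without cKO 2 the latter was 0.20.

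Cmpk2, a mitochondrial nucleotide kinase, was at 0.807, 0.377 and 0.572 FPKM in controls against 1.07, 1.07 and 0.685 FPKM in cKO. Only cKO 4 lay within the range of the controls (log2 fold change 0.30, SE 0.14, adjusted p = 0.213), and the estimate was 0.25 without cKO 2. Samhd1, which breaks down the building blocks of DNA, was named after its values were seen and had the lowest adjusted p of the members. It was at 34.3, 30.5 and 33.1 FPKM in controls against 40.8, 36.2 and 37.0 FPKM in cKO, from 5979 to 9567 reads per library. All cKO cultures were above all controls by a small margin (1.16-fold, log2 fold change 0.21, SE 0.07, interval 0.04 to 0.38, adjusted p = 0.116). Without cKO 2 the log2 fold change was 0.16.

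Lgals3bp, a secreted glycoprotein, was at 72.4 ± 10.8 and 76.8 ± 14.2 FPKM, and Ifi27 at 53.0 ± 4.24 and 57.7 ± 6.11 FPKM. Ifi35 was at 6.13 ± 0.383 and 6.74 ± 0.861 FPKM, and the nuclear body protein gene Sp100 at 2.22 ± 0.538 and 2.48 ± 0.316 FPKM. Rtp4, which helps receptors to the cell surface, was at 9.18 FPKM in cKO 2 and between 4.02 and 6.94 FPKM elsewhere. Its log2 fold change was 0.02, and -0.28 without cKO 2. Xaf1, a partner of an apoptosis inhibitor, was at 1.44 ± 0.308 and 1.33 ± 0.433 FPKM. None of these had an interval that excluded 0.

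Members under the filter were Zbp1, Ifit3b, Oasl1, Mx1, Mx2, Rsad2 and Ifi44, with 4 to 106 reads per library. Mx1 and Mx2, which are defective in common laboratory strains such as C57BL/6, had 5 to 16 and 9 to 16 reads. Rsad2 (viperin), often among the strongest responders to interferon, had 13 to 23 reads. Ifi44 had 0.858, 0.325 and 0.526 FPKM in controls against 0.247, 0.154 and 0.133 FPKM in cKO, from 106, 43, 67, 26, 17 and 23 reads. All cKO values were below all controls (31.2% of the control mean). Without the filter its log2 fold change was -0.40 (SE 0.13) and its limma adjusted p 0.168, and no low member was called.

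The members had their highest values mostly in 1 library. In 23 of the 32 tested members (71.9%) cKO 2 was the highest of the 6 libraries, where 12.3% of all 13326 tested genes had their highest value there. Within the cKO group it was highest in 29 of 32 members (90.6%), against 29.7% of all tested genes. In 8 members cKO 2 was over 1.5 times the mean of the other 5 libraries. These were Isg15, Usp18, Ifit1, Oasl2, Rtp4, Gbp3, Dhx58 and Cmpk2. By contrast cKO 4 was highest in 0 of 32 members, against 20.97% of all tested genes.

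Among the controls, control 2 was the highest control in 21 of 32 members (65.6%), against 34.4% of all tested genes, and control 3 the lowest in 16 and control 4 in 15. In 18 members (56.3%) replicate 2 was highest in both groups, against 8.82% of all tested genes. Across all tested genes the deviations of controls and cKO with the same number were not correlated above 0.1, so the number was not taken to pair the cultures. The median member deviated from its 6-library mean on the log2(FPKM + 1) scale by 0.23 in cKO 2 and by 0.05 in control 2. In the other 4 libraries this value lay between -0.12 and -0.03. Inferred library totals were 20158329, 21581625 and 20770169 reads in controls 2, 3 and 4. For cKO 2, 3 and 4 the totals were 17180101, 18044678 and 28283414 reads. Replicate 2 thus had the smallest total of each group. The part of library size in the library pattern was not tested.

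**Figure D3:**
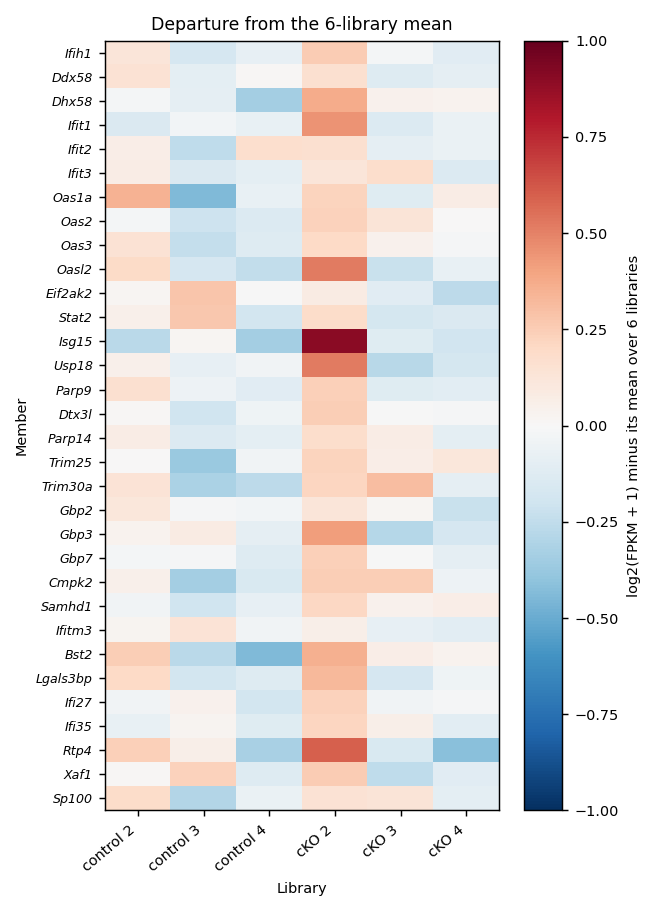
Difference of log2(FPKM + 1) from its mean over the 6 libraries (colour, red above and blue below) for the 32 tested members (y axis) in each library (x axis). The column of cKO 2 is red for nearly all members, with a median of 0.23, and Isg15 and Rtp4 are among the strongest.

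Interferon-stimulated genes outside the set were also most often highest in cKO 2. Of 55 listed, 51 were measured and 39 tested, with 0 higher and 0 lower by limma. At an unadjusted p under 0.05 there were 6 of 39, where that limit takes 28.8% of all tested genes. In 22 of the 39 (56.4%) cKO 2 was highest. By the smallest p, Irgm1, a GTPase of the interferon-gamma response, was at 6.23 ± 0.961 and 4.24 ± 0.588 FPKM (log2 fold change -0.46, SE 0.12, adjusted p = 0.0655, and 0.0350 with voom). Apol9b was at 1.06 ± 0.0578 and 0.604 ± 0.187 FPKM (adjusted p = 0.0883). Their 39 log2 fold changes had a median of 0.09, with 27 positive.

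Among markers of other cell types, those of granulocytes were highest in cKO 2 and those of macrophages mostly in cKO 3. All 4 tested granulocyte markers had their highest value in cKO 2 (100%), and in 3 of the 4 replicate 2 was highest in both groups. Macrophage markers were highest in cKO 3 in 10 of 17 and in cKO 2 in 1 of 17, and 0 were called. At an unadjusted p under 0.05 there were 4 of the 17, where that limit takes 28.8% of all tested genes. Of these 4, Cx3cr1 alone was lower in cKO. By the smallest p, C1qc was at 203 ± 58.3 and 292 ± 46.2 FPKM (log2 fold change 0.55, SE 0.21, limma adjusted p = 0.147). Cx3cr1 was at 27.9 ± 9.78 and 16.1 ± 3.16 FPKM (log2 fold change -0.71, SE 0.27, limma adjusted p = 0.147). The granulocyte genes S100a8 and S100a9 were highest in cKO 2, at 56.9 and 119.9 FPKM, against 0.935 to 31.0 and 1.42 to 62.4 FPKM in the other 5 libraries. Neither was called (limma adjusted p = 0.0574 and 0.0787), but both passed without control 3 (0.0418 and 0.0467) and with voom (0.0402 and 0.0463). All cKO values of both genes lay above all controls, where 35.7% of all tested genes had no overlap between the groups. Of 8 granulocyte markers 4 were tested, with 0 called and 4 at an unadjusted p under 0.05 (28.8% of all tested genes). Summed over the 8, their level was 5.42 to 38.9 FPKM in controls against 80.3 to 244 FPKM in cKO. Primary granule genes were near 0 and too low to be tested, with Elane at 0 in 5 of 6 libraries. Prtn3 was absent from every control, while cKO 2, 3 and 4 held 0.235, 0.096 and 0.327 FPKM. Mpo did not exceed 0.0141 FPKM in any control. Its level was 0.170 FPKM in cKO 2, 0 in cKO 3 and 0.0723 FPKM in cKO 4, so its groups overlapped. The part of granulocytes or macrophages in the library pattern was not tested. In bulk RNA more cells of a type and more RNA per cell cannot be told apart.

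Plasmacytoid dendritic cells, known for their interferon output, and lymphocytes left little signal. Of 7 plasmacytoid dendritic cell markers 6 were measured, and the defining marker Siglech did not exceed 0.0523 FPKM. The 1 tested marker, Cox6a2, which muscle also expresses, was not called (limma adjusted p = 0.532, 1.22 to 2.59 FPKM over the 6 libraries). Of 10 lymphocyte and NK cell markers 7 were measured and 1, Cd4, was tested, at 0.552 ± 0.237 and 1.07 ± 0.145 FPKM (limma adjusted p = 0.0925, and 0.0460 without control 2). All 6 endothelial markers had lower means in cKO. Of these, 4 had an unadjusted p under 0.05 and no overlap between the groups, against 28.8% and 35.7% of all tested genes. The summed level of the 6 markers was 20.5 to 26.6 FPKM in controls against 15.0 to 17.7 FPKM in cKO. The part of these markers in the results was not tested. Emcn alone passed and fell from 3.16 ± 0.276 to 1.99 ± 0.283 FPKM (limma adjusted p = 0.0323), a call lost without any 1 of the 6 libraries (adjusted p = 0.0589 to 0.0896).

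**Figure D4:**
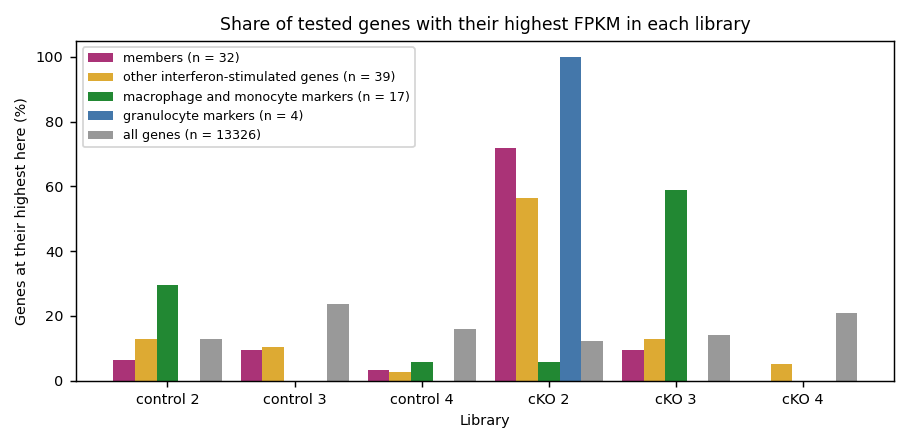
Share of tested genes (y axis, %) whose highest FPKM is in each library (x axis), for the members, other interferon-stimulated genes, macrophage and monocyte markers, granulocyte markers and all tested genes. The share in cKO 2 is 71.9% for the members, 56.4% for the other interferon-stimulated genes, 100% for the 4 granulocyte markers and 12.3% for all genes, and macrophage markers peak in cKO 3 at 58.8%.

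Upstream of the members, the feedback inhibitors Socs1 and Socs3 rose in cKO, and no other listed gene that receives or relays the signal was called. Of 17 listed receptors, kinases, STATs and feedback genes 16 were tested, with 2 higher and 0 lower. Socs1, an inhibitor of the kinases at the interferon receptors, was at 4.68, 6.11 and 4.46 FPKM in controls against 11.5, 10.4 and 14.7 FPKM in cKO. All cKO cultures lay well above all controls (2.40-fold, log2 fold change 1.11, SE 0.15, adjusted p = 0.0129). Unlike the members, Socs1 was highest in cKO 4, and without control 4 its adjusted p was 0.0668 at a log2 fold change of 1.04. Socs3, which inhibits cytokine receptors of the gp130 type, rose 1.51-fold (log2 fold change 0.57, SE 0.09, adjusted p = 0.0193), with adjusted p = 0.0892 without control 4 and 0.0692 without cKO 3.

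The receptor genes Ifnar1 and Ifnar2 were at 19.8 ± 0.751 and 21.1 ± 0.773 FPKM and at 13.2 ± 1.91 and 14.8 ± 0.646 FPKM in controls against cKO. Irf9 was at 5.80 ± 0.713 and 6.33 ± 0.653 FPKM. Of 17 genes of nucleic acid sensing 16 were measured and tested, and 0 were called by limma. At an unadjusted p under 0.05 there were 3 of 16, where that limit takes 28.8% of all tested genes. By the smallest p these were led by Irf3, a factor that switches on interferon genes, at 12.6 ± 0.111 and 14.8 ± 0.747 FPKM (log2 fold change 0.21, SE 0.06, adjusted p = 0.0697). Irf7, which amplifies interferon production and is itself interferon-stimulated, had 3.27, 2.90 and 2.01 FPKM in controls against 6.30, 4.07 and 3.35 FPKM in cKO. The groups did not overlap, and cKO 2 was highest (log2 fold change 0.56, SE 0.21, adjusted p = 0.144).

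**Figure D5:**
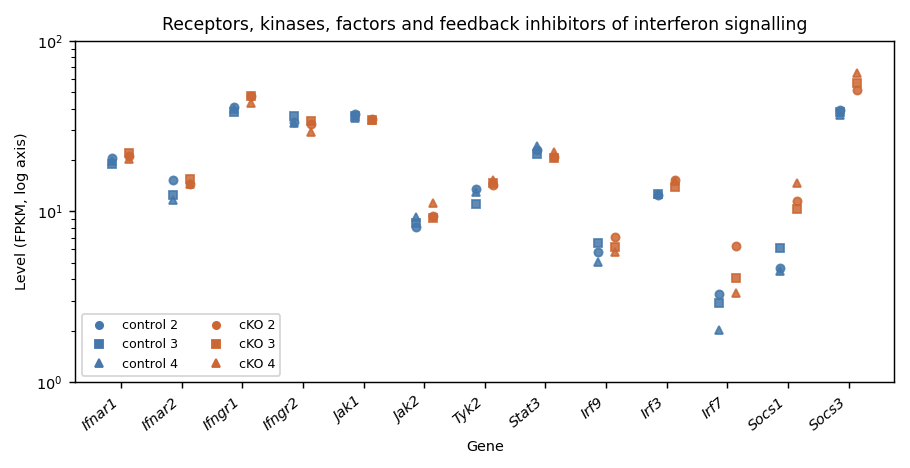
Level in FPKM (log y axis) of receptors, kinases, transcription factors and feedback inhibitors of interferon signalling (x axis) in each library, blue for control and orange for cKO, with circles, squares and triangles for replicates 2, 3 and 4. Socs1 and Socs3 are higher in all cKO libraries, while Irf7 is highest in cKO 2.

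Few interferon genes could be examined. Of 21 ligand genes listed, 2 were in the table and the others are not analysed here. Ifne, a type I interferon of epithelia, was listed at 0 in all 6 libraries, and Ifnz did not exceed 0.193 FPKM in any.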

How the data were processed

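RNA selected on poly-T beads was sequenced, per the labels' protocols. The authors deposited a single table of FPKM with a column for each library. The submitters' processing notes list HTSeq 0.6.0 and DESeq2 1.10.1 and give neither a role. No aligner, genome build, gene models or strandedness could be read from the sources used here.

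Symbols, exons and GC content came from GENCODE M21 (GRCm38). FPKM steps gave library totals and whole reads for 100.0% of 23427 genes with a value (tolerance 1e-06). The gene length was the exon union for 77.7% of them and was inferred for the others, whose read numbers may be off by a multiple. In every library the summed reads exceeded the inferred total (18694308 against 17180101 in cKO 2, 32694708 against 28283414 in cKO 4). The reason was not tested. Totals of 17180101 to 28283414 reads limit precision, and read numbers cover counting error only. A filter at a mean of 0.5 FPKM left 13326 genes, fitted on log2(FPKM + 1), which understates changes of low genes, with limma 3.58.1 in R 4.3.3 (trend, 2-sided, Benjamini-Hochberg over all genes, threshold 0.05, no covariate). Other steps ran in Python 3.11.15 with pandas 2.3.3. The fit was tested on simulated data with the same spread setting for every gene and no shift shared by genes of a library. That test does not show how well changes of the members would be found.

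Members and lists were chosen with earlier results of these data known. Values per library are given for members past the threshold, for the 2 tested members with the largest estimate in each role group, and for further members picked after their values were seen. From every other list up to 3 called genes, or else the 2 with the smallest p, were named, and additional genes of those lists were picked later. Alternatives covered pseudocounts, filters, scaling, trend, voom on recovered reads, GC correction, a replicate block and leaving out each library.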

Additional observations from a re-analysis of the deposited data

How the results depend on the processing

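No member passed in any of 17 alternative fits (0 higher and 0 lower in each), so that count did not depend on the choices tried, while members at an unadjusted p under 0.05 numbered 3 as reported, 1 after quantile normalization, 5 with the replicate block and 8 with the block and GC correction. Counts over all genes did: 672 higher and 342 lower became 327 and 184 without the filter, 401 and 323 after GC correction, 609 and 560 after quantile normalization and 945 and 535 with voom, and ranged from 45 to 626 higher and 26 to 374 lower when a library was left out. The lowest were without control 4 (45 and 26), then without cKO 3 (129 and 46), cKO 2 (282 and 101) and cKO 4 (308 and 136). Same-numbered cultures had correlations of deviations of -0.04, -0.05 and 0.03 over all tested genes, so the number was not taken to pair them. Such a correlation cannot show whether they share an origin that touches only part of the genes. The replicate block gave 42 higher and 22 lower, and with GC correction 1 and 2. Signs turned for uncalled members with main estimates from -0.09 (Stat2) to 0.16 (Ifit1), whose intervals included 0. Leaving out a library gave log2 fold changes of -0.023 to 0.17 for Ifih1, -0.021 to 0.27 for Ifit1, -0.12 to 0.048 for Gbp2, -0.13 to 0.027 for Ddx58, -0.11 to 0.096 for Ifit2, -0.076 to 0.32 for Oas1a, -0.074 to 0.30 for Oasl2, -0.21 to 0.022 for Stat2, -0.20 to 0.19 for Usp18, -0.11 to 0.088 for Parp9, -0.24 to 0.12 for Gbp3, -0.065 to 0.19 for Lgals3bp, -0.28 to 0.23 for Rtp4 and -0.22 to 0.031 for Xaf1. After GC correction, with or without the replicate block, Gbp2 was at 0.0040, Ddx58 at 0.018, Gbp3 at 0.039 and Lgals3bp at -0.015. Quantile normalization put Ifit2 at -0.018 and Parp9 at -0.026, and voom put Usp18 at -0.049, Parp9 at -0.0082 and Rtp4 at -0.067. Quantile normalization moved the median of all genes to -0.03 and that of the members to 0.08. The cause of these changes was not tested. Under the block Ift140, Socs1, Socs3, Prrx1 and Emcn had limma adjusted p of 0.0633, 0.0637, 0.0745, 0.0750 and 0.0665. Without the filter and after GC correction Prrx1 (0.0533 and 0.0758) and Emcn (0.0812 and 0.0523) also missed the threshold. Low read numbers limit the 7 members under the filter.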
